A study of Sus scrofa with 6 samples.

Results

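The differentially methylated regions (DMRs) described here lie in genes of protein kinases, protein phosphatases and the lipid kinases that act with them. They were found by the human gene symbol that the deposited table gives for a pig transcript, with symbols such as MAPK, PRKC, CDK, FGFR, PTPR, PTPN, PPP, DUSP or PIK3 at their start, in every gene element. The rule matched 142 of the 14163 DMRs of the table, in 201 of its 15883 annotations, at 84 of the 2686 human gene symbols listed for gene elements. Its 84 genes include 3 that only share the start of a symbol, namely MAPKAP1, PAK1IP1 and PIK3AP1, with 4 DMRs. The libraries were made by methylated DNA immunoprecipitation (MeDIP-seq), in which an antibody against methylated cytosine enriches methylated DNA, so that more reads fall on a CpG the more it is methylated. They came from backfat of 3 Landrace pigs (LBF, a lean breed) and 3 Rongchang pigs (RBF, a fatty breed indigenous to China). All 6 pigs were female, were kept in the same housing and were slaughtered at 210 days of age, and each library came from a separate animal. Whole backfat was used, in which a change in methylation cannot be told apart from a change in the share of a cell type, and the table holds no expression of marker genes by which the tissue could be checked.

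Protein kinases move phosphate from ATP to proteins and protein phosphatases take it off again, so that the balance of both sets the activity of their targets. Signals such as insulin and growth factors reach fat cells through receptor tyrosine kinases, lipid kinases of the PI3K family and the kinases AKT and PKC, and the MAP kinase cascade carries a parallel signal to the nucleus. Tyrosine phosphatases, dual-specificity phosphatases and the Ser/Thr phosphatases with their many regulatory subunits end these signals. In fat tissue the insulin branch is known for promoting glucose uptake and lipid storage.

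The unit of the table is the normalized read depth, as the mean over the CpGs of a DMR in a library. Over the 142 DMRs the median depth per library was 32.5, 32.2 and 35.04 for LBF, against 15.7, 16.1 and 12.1 for RBF. A depth of 0 in at least 1 library was listed for 3 DMRs in LBF and 3 DMRs in RBF. RBF replicate 3 was the lowest RBF library in 69 of the 111 DMRs that were higher in LBF, or 62.2%, and in 60.7% of all such DMRs of the table. The 142 DMRs spanned 23 to 693 bp (median 141.5 bp, against 148 bp over the whole table) and held at most 18 CpGs, with 7 as the median both here and over the table.

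Of the 142 DMRs, 111 had the higher depth in LBF and 31 the lower depth. The DMRs higher in LBF lay at 71 genes, where the median depth was 39.6 for LBF and 12.1 for RBF. The DMRs lower in LBF lay at 28 genes, where it was 13.6 for LBF and 34.7 for RBF. The share higher in LBF was 78.2% (exact 95% binomial interval 70.5 to 84.7, for counting error only and as if DMRs were independent), beside 83.1% of the other 4207 DMRs with a human symbol and 84.8% of all DMRs. The median log2 fold change of the 142 DMRs was 1.49, against 1.64 over the table, and it ran from -3.46 to 4.59. Every fold change is given as LBF over RBF on the log2(depth + 1) scale, which shrinks the change of low depths, and a bare number in parentheses after depths is this log2 fold change (± standard error where given). With limma, all 142 passed an adjusted p of 0.05, with 111 higher and 31 lower in LBF, while 99.5% of all DMRs passed (84.5% higher and 15.1% lower). No LBF library overlapped an RBF library at any of the 142, as at 100% of the table. Both follow from the table, which lists regions already called on these same pigs, so that the values below give the size of each difference and the spread between pigs. Some DMRs named below were chosen after their values were seen.

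The balance of directions depended on how libraries were scaled. If all 6 libraries were given an equal median across the table (equal library medians), the median log2 fold change over the table shifted by -1.41 to 0.24, and that of the 142 DMRs became 0.08. The split was then 75 higher and 67 lower, or 52.8% higher beside 59.8% of all DMRs, of which 11 higher and 31 lower passed limma, and 27.9% of all DMRs passed. This scaling lowered LBF against RBF at every DMR, so the 31 lower DMRs could only stay lower, which is no check on them. Of the 111 higher DMRs, 36 turned to lower, and none of these 36 passed. The 11 DMRs that stayed higher and passed lay at ERBB3, MAP3K4, MAP3K15 (2 DMRs), STK3, STK33 (2 DMRs), STK31, PRKCQ, HIPK2 and PTPN21. This scaling takes the middle of regions picked for differing as its zero.

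**Figure D1:**
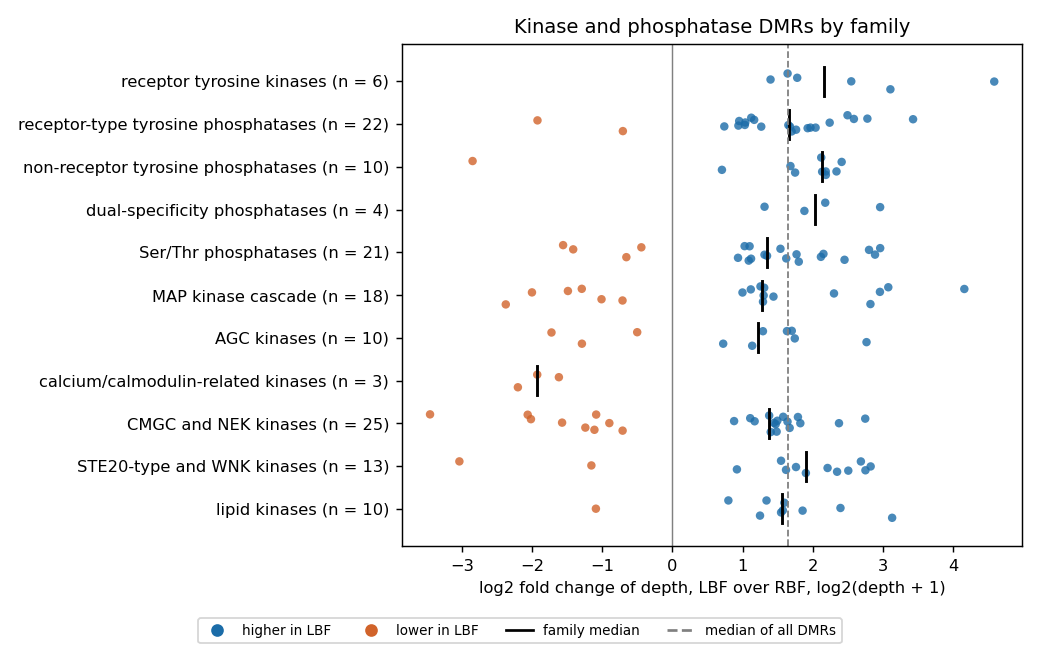
Log2 fold change of depth (LBF over RBF) of each of the 142 DMRs, with points in blue where depth was higher in LBF and in orange where it was lower. Rows are families as sorted by the start of the gene symbol, and the STE20-type and WNK row holds PAK and STK genes and no WNK gene. Rows include the 4 DMRs of genes that only share a prefix. The black bars are family medians and the dashed line is the median of all 14163 DMRs (1.64). The calcium/calmodulin-related kinases (CAMK symbols only) have the only median below 0. With equal library medians the median also falls below 0 for the Ser/Thr phosphatases, the MAP kinase cascade and the AGC and CMGC/NEK kinases.

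**Figure D2:**
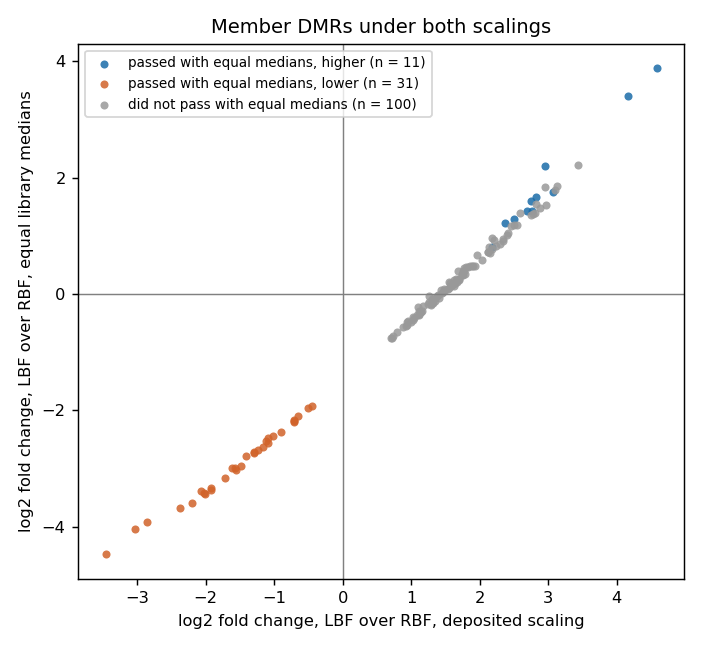
Log2 fold change (LBF over RBF) of the 142 DMRs with the deposited scaling (horizontal) and with equal library medians (vertical). The 31 orange points pass limma under both, but could only stay below 0, since equal library medians lower LBF against RBF at every DMR. Of the others, 11 blue points stay above 0 and pass, and the 100 grey points do not pass with equal library medians.

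Promoters held 7 of the DMRs and exons 5, with a single DMR in both, the CpG-rich promoter (HCP) and first exon of MAP3K4, a kinase at the top of stress-activated MAP kinase signalling. Its depth was 141, 141 and 128 (LBF) against 76.7, 72.9 and 29.9 (RBF) over 14 CpGs of a CpG island (chr1:8311670-8311829, 1.29 ± 0.38 log2 units, limma-adjusted p = 0.014). RBF replicate 3 lay well below the other RBF libraries there, and the breeds still did not overlap. HIPK2, a kinase that phosphorylates p53, had 11.0, 14.3 and 12.4 (LBF) against 1.35, 2.08 and 1.43 (RBF) at a promoter of intermediate CpG content (chr18:10476608-10476824, 2.37 ± 0.21 log2 units, limma-adjusted p = 0.0012). Depth was low in all RBF pigs at HIPK2, and this was the promoter DMR with the largest fold in favor of LBF. The next 3 DMRs, like that of HIPK2, were annotated to distal parts of promoters. DYRK1A, a kinase encoded in the Down syndrome region in humans, had 24.9, 26.0 and 22.3 (LBF) against 4.88, 9.06 and 11.6 (RBF) (1.48). MAP2K2, the kinase MEK2 that activates ERK, had 9.59, 12.5 and 10.5 (LBF) against 4.82, 4.17 and 3.01 (RBF) (1.25) at a CpG-poor promoter. PTPRJ, a receptor-type phosphatase that acts on growth factor receptors, had 58.4, 64.9 and 53.4 (LBF) against 21.6, 30.7 and 25.4 (RBF) (1.16). All of these promoters were higher in LBF.

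The promoter of PTPN14, a phosphatase known as a partner of the Hippo effector YAP, went the other way. Its depth was 0.734, 1.93 and 0 (LBF) against 10.5, 9.37 and 15.0 (RBF) over 8 CpGs (chr9:142083242-142083383, -2.85 ± 0.42 log2 units, limma-adjusted p = 0.0019), and every LBF pig was below every RBF pig. The next DMR of the gene, 29998 bp further in an intron, had 42.5, 44.1 and 32.3 (LBF) against 4.27, 19.99 and 6.20 (RBF) (2.12). After MAP3K4, the exon DMR with the highest depths was that of DUSP28, at 84.7, 78.6 and 94.1 (LBF) against 43.0, 37.7 and 24.0 (RBF) (1.31), followed by PAK1IP1, a binding partner of the kinase PAK1, at 51.5, 48.6 and 56.2 (LBF) against 25.1, 34.1 and 23.0 (RBF) (0.92). DUSP26 had 30.5, 30.7 and 38.1 (LBF) against 10.3, 9.37 and 5.67 (RBF) (1.88) over 18 CpGs of its last exon, and the last exon of PTPRJ had 25.6, 25.1 and 24.2 (LBF) against 11.8, 11.9 and 6.62 (RBF) (1.26). All 5 exon DMRs were higher in LBF, beside 72.4% of the 261 exon DMRs of the table, and promoters were higher in 6 of 7, beside 83.6% of 402. With equal library medians the MAP3K4, MAP2K2, PTPRJ (promoter and exon), DUSP28 and PAK1IP1 DMRs turned to lower without passing. HIPK2 kept its call (log2 fold change 1.22). PTPN14 also passed (-3.92), but a lower DMR could only stay lower under this scaling.

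**Figure D3:**
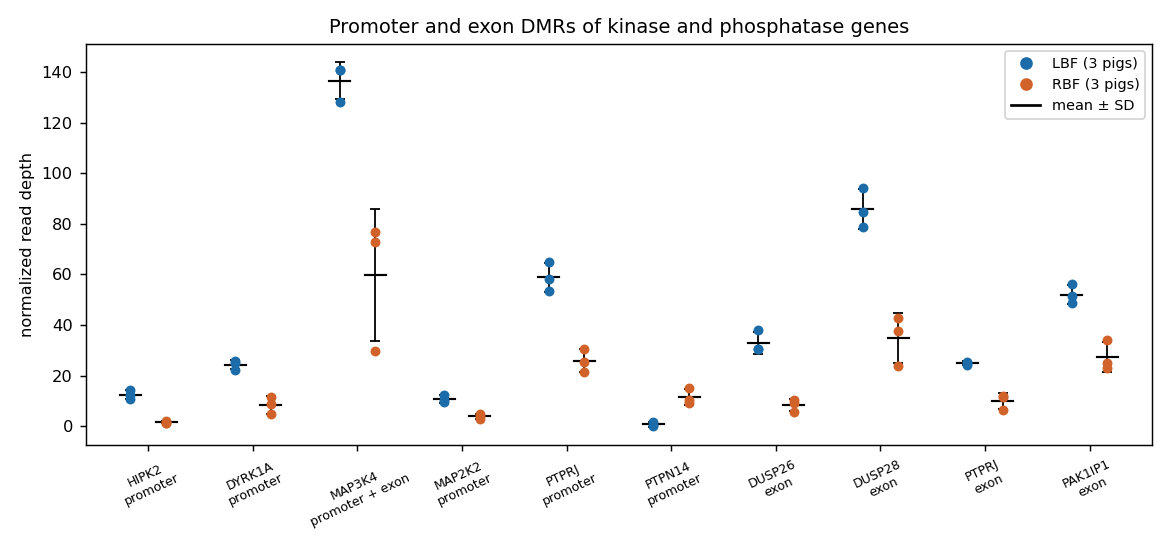
Normalized read depth of each pig (points; LBF blue on the left, RBF orange on the right) at 10 promoter and exon DMRs, with black bars for the mean ± SD (n = 3 pigs each). Only PTPN14 is lower in LBF, and MAP3K4 has the highest depth and the widest spread in RBF; with equal library medians 6 of the others turn to lower without passing limma.

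Receptor tyrosine kinases bind growth factors outside the cell. Their 6 DMRs, in introns of ERBB3, FGFR2 and NTRK3, were all higher in LBF (median log2 fold change 2.16). With equal library medians 5 of 6 stayed higher, of which 1, at ERBB3, passed limma. ERBB3, a receptor for neuregulins, held the largest fold of all 142 DMRs, with 32.0, 32.4 and 30.7 (LBF) against 1.52, 0 and 0 (RBF) (chr5:23074447-23074597, 4.59 ± 0.39 log2 units, limma-adjusted p = 0.0012). Depth was close to 0 in all RBF pigs and nearly equal among the LBF pigs. A second ERBB3 DMR, which also lies in RNF41, had 36.0, 40.2 and 41.5 (LBF) against 1.83, 12.5 and 7.49 (RBF) (2.55). NTRK3, the receptor of neurotrophin-3, had 44.8, 49.4 and 41.5 (LBF) against 3.26, 1.12 and 16.0 (RBF) at a CpG island shore (3.11), with RBF replicate 3 well above the other RBF libraries. FGFR2, a receptor of fibroblast growth factors, held 3 DMRs at 1.40, 1.78 and 1.64, annotated to introns of several transcripts, with the highest depths at 73.6, 70.3 and 70.2 (LBF) against 34.02, 23.2 and 13.8 (RBF).

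Receptor-type tyrosine phosphatases span the membrane, and most remove phosphate from tyrosine inside the cell. They held 22 DMRs at 10 genes, with 20 higher and 2 lower in LBF and a median log2 fold change of 1.66. With equal library medians the split was 12 and 10, and no higher DMR passed limma. PTPRK, which binds to itself between cells, had the largest fold, with 25.8, 29.9 and 39.2 (LBF) against 0.914, 0.937 and 6.20 (RBF) (chr1:38438742-38438911, 3.43 ± 0.55 log2 units, limma-adjusted p = 0.0022), and it stayed higher with equal library medians without passing (2.22). RBF replicate 3 was above the other RBF libraries at this DMR. The related PTPRT had 24.5, 18.05 and 15.0 (LBF) against 0.352, 4.45 and 3.87 (RBF) at the strongest of its 3 DMRs (2.59), PTPRU had 88.6, 59.9 and 77.5 (LBF) against 17.3, 25.2 and 11.9 (RBF) at the stronger of 2 (2.04) and PTPRM had 48.3, 60.3 and 42.6 (LBF) against 10.3, 14.8 and 17.9 (RBF) (1.76). PTPRR, which acts on MAP kinases, had 60.4, 52.9 and 65.0 (LBF) against 3.66, 13.1 and 9.29 (RBF) (2.78). PTPRN and PTPRN2, proteins of hormone-storing vesicles, had smaller folds of 1.04 and 1.03, and PTPRH had the smallest of the family among those higher, at 0.74. At PTPRJ, all 4 DMRs, in its promoter, an intron, its last exon and the 2 kb downstream, were higher in LBF (1.16, 0.95, 1.26 and 1.93), but with equal library medians only the downstream DMR stayed higher. Both lower DMRs of the family lay in PTPRE, described with the genes of mixed direction.

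Non-receptor tyrosine phosphatases held 10 DMRs at 6 genes, with 9 higher and 1 lower in LBF (median log2 fold change 2.13). With equal library medians the split was 8 and 2, and 1 of the higher DMRs, at PTPN21, passed limma. PTPN13, a large phosphatase with PDZ domains, held 4 intron DMRs, all higher in LBF, of which the first 3 were 2165 and 4081 bp apart. The strongest had 39.9, 50.1 and 39.9 (LBF) against 10.5, 11.9 and 2.84 (RBF) (chr8:141383678-141383889, 2.41 ± 0.48 log2 units, limma-adjusted p = 0.0037), and the others had log2 fold changes of 2.13, 2.19 and 1.68. RBF replicate 3 was the lowest library at 3 of the 4. PTPN9 had 1.75, PTPN21 had 41.3, 30.3 and 30.1 (LBF) against 7.36, 7.81 and 4.95 (RBF) (2.18) and PTPN5, a phosphatase known from brain, had 61.8, 64.1 and 66.0 (LBF) against 14.02, 18.3 and 6.32 (RBF) (2.34). PTPN1, the phosphatase PTP1B that acts on the insulin receptor, had 45.6, 39.7 and 39.4 (LBF) against 21.9, 27.5 and 26.1 (RBF) in its first intron (chr17:58445212-58445269, 0.70 ± 0.19 log2 units, limma-adjusted p = 0.011). This was the smallest fold in favor of LBF in the family, and it turned to lower with equal library medians (-0.75) without passing.

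Dual-specificity phosphatases take phosphate off both tyrosine and Ser/Thr, and several act on MAP kinases. Their 4 DMRs, at DUSP10, DUSP15, DUSP26 and DUSP28, were all higher in LBF, and 3 stayed higher with equal library medians without passing limma. DUSP15, at an intron it shares with TPX2, had 15.6, 16.3 and 21.9 (LBF) against 1.94, 0.284 and 2.70 (RBF) (chr17:40435893-40436057, 2.96 ± 0.42 log2 units, limma-adjusted p = 0.0018). DUSP10, a phosphatase of the stress kinases p38 and JNK, had 13.9, 13.3 and 14.8 (LBF) against 0.762, 3.91 and 3.23 (RBF) (2.18). At DUSP10 and DUSP15 the RBF libraries were all below 4 and the LBF libraries all above 13.

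Ser/Thr phosphatases and their subunits held 21 DMRs at 13 genes, with 17 higher and 4 lower in LBF (median log2 fold change 1.35), and 10 higher and 11 lower with equal library medians. PPP2R2B, a regulatory subunit of PP2A, had the largest fold, with 109.6, 84.3 and 109.6 (LBF) against 6.86, 11.9 and 20.8 (RBF) (chr2:154651285-154651450, 2.96 ± 0.39 log2 units, limma-adjusted p = 0.0016). PPP1R16B, a subunit that targets PP1, held 2 DMRs at 2.45 and 2.89, the second with 88.7, 74.8 and 109 (LBF) against 11.9, 28.4 and 3.87 (RBF). RBF replicate 2 was the highest RBF library at both of these. PPP6R3, a subunit of PP6, had 82.2, 90.2 and 93.7 (LBF) against 24.8, 17.3 and 3.49 (RBF) (2.80) and PPP4R4, of PP4, had 66.2, 69.9 and 69.6 (LBF) against 20.8, 8.50 and 17.5 (RBF) (2.15). PPM1H had the highest mean depth in LBF after MAP3K4, at 157, 106 and 135 (LBF) against 52.6, 40.4 and 34.6 (RBF) (1.62). PPM1D, a phosphatase that restrains p53 signalling, shared its 3 DMRs with the neighboring BCAS3, all higher in LBF (1.03, 2.12 and 1.80). The catalytic subunits PPP1CB and PPP6C lay below the family median, at 0.93 for PPP1CB and 1.31 and 1.10 for PPP6C. The inhibitors of PP1 differed in direction, with 15.3, 19.98 and 15.6 (LBF) against 3.30, 3.91 and 5.81 (RBF) at PPP1R14C (1.77) and 6.81, 6.96 and 4.03 (LBF) against 19.8, 18.1 and 13.9 (RBF) at PPP1R14D (-1.42), a DMR shared with DNAJC17.

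In the MAP kinase cascade, MAP3Ks, with MAP4Ks upstream of them, switch on MAP2Ks, which switch on most MAPKs. Without MAPKAP1, whose 2 DMRs were grouped here by symbol alone, these genes held 16 DMRs at 9 genes, with 11 higher and 5 lower in LBF (median log2 fold change 1.27), and 5 higher and 11 lower with equal library medians. The largest fold was in an intron of MAP3K4, 9275 bp from its promoter DMR, with 35.7, 27.7 and 38.3 (LBF) against 0, 6.25 and 0 (RBF) (chr1:8321104-8321236, 4.16 ± 0.78 log2 units, limma-adjusted p = 0.0031), and it stayed past limma with equal library medians (3.41). Of the RBF libraries, only replicate 2 had a depth above 0 there. A further MAP3K4 DMR had 1.31. MAP3K5, the stress kinase ASK1, held 2 DMRs higher in LBF, with 33.5, 44.3 and 35.3 (LBF) against 4.85, 11.6 and 1.17 (RBF) (2.82) and 19.3, 19.9 and 23.3 (LBF) against 7.31, 9.06 and 7.23 (RBF) (1.30). MAP4K2 had 97.9, 85.7 and 85.8 (LBF) against 53.6, 47.1 and 34.6 (RBF) in the 2 kb downstream (0.997). Lower in LBF was MAPK10, the JNK isoform best known from neurons, with 2.18, 1.66 and 8.31 (LBF) against 23.3, 20.3 and 20.3 (RBF) (chr8:142053876-142054097, -2.38 ± 0.48 log2 units, limma-adjusted p = 0.0038). Here LBF replicate 3 was above the other LBF libraries, and all LBF pigs stayed below all RBF pigs. MAP2K4, which switches on JNK and p38, had 11.3, 11.9 and 14.9 (LBF) against 28.6, 23.1 and 27.9 (RBF) (-1.01), and MAP3K8 had 23.7, 25.4 and 28.5 (LBF) against 45.2, 42.2 and 41.3 (RBF) (-0.71).

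The AGC kinases include PKC, AKT and the cGMP-dependent kinases. They held 10 DMRs at 6 genes, with 7 higher and 3 lower in LBF (median log2 fold change 1.21), and 4 higher and 6 lower with equal library medians. PRKCQ, a PKC that responds to diacylglycerol, held 3 DMRs, all higher in LBF, with the largest fold at 37.0, 31.6 and 37.2 (LBF) against 3.30, 6.51 and 3.66 (RBF) (chr10:70551722-70551873, 2.77 ± 0.27 log2 units, limma-adjusted p = 0.0012). PRKG2, a cGMP-dependent kinase, had 70.8, 83.3 and 71.5 (LBF) against 16.4, 30.8 and 22.1 (RBF) (1.70). MAST3 was lower, with 10.8, 16.6 and 13.3 (LBF) against 49.4, 40.0 and 51.1 (RBF) over 18 CpGs (-1.72), the most CpGs of any of the 142 DMRs, a number shared with PPM1D and DUSP26. Families were sorted by the start of the symbol, so the calcium/calmodulin-related kinases here are only genes with CAMK at its start. Their 3 DMRs were all lower in LBF, and equal library medians could only leave them lower. Kinases with other symbols were sorted elsewhere, among them STK33, whose 5 DMRs were all higher in LBF. CAMK1G had 15.0, 2.84 and 6.88 (LBF) against 43.6, 32.8 and 30.5 (RBF) (chr9:146508630-146508785, -2.20 ± 0.51 log2 units, limma-adjusted p = 0.0059), CAMK2D, a subunit of the kinase CaMKII, had 12.5, 4.08 and 10.9 (LBF) against 35.3, 33.6 and 34.9 (RBF) (-1.93), and CAMKK2, which activates AMPK, had 3.72, 9.45 and 6.92 (LBF) against 18.3, 23.7 and 22.8 (RBF) (-1.62) at a DMR shared with P2RX4. In each of the 3 the LBF pigs spread more widely relative to their mean than the RBF pigs. With 3 DMRs, this direction was given no test.

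Kinases of the CMGC group and the NEK family, which act in transcription, the cell cycle and cilia, held 25 DMRs at 14 genes. Of these 16 were higher and 9 lower in LBF (median log2 fold change 1.38), and 11 and 14 with equal library medians. HIPK3 held 2 DMRs of its first intron at 1.38 and 1.79, NEK1, a kinase of cilia and DNA repair, 2 at 1.40 and 1.49, and DYRK1A 3 at 1.48, 1.67 and 0.88, all higher in LBF. NEK5 had 1.11 and 1.58 (the second in the 2 kb downstream and shared with ALG11), CDK14 had 1.47 and NEK7 had 1.17. Lower in LBF were DYRK4, with 5.29, 9.88 and 7.51 (LBF) against 36.8, 31.0 and 31.0 (RBF) (-2.02), NEK2, a kinase of centrosome separation, with 29.1, 29.4 and 36.6 (LBF) against 62.8, 79.8 and 63.1 (RBF) (-1.09), CDK15 (-1.11) and CDKL3, with 54.9, 56.6 and 60.4 (LBF) against 88.1, 93.9 and 102 (RBF) (-0.71). The DYRK4 and NEK2 DMRs lie in the 2 kb downstream, and that of DYRK4 is shared with AKAP3.

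The STE20-type kinases and the other STK genes were grouped by symbol (PAK or STK) and need not be 1 protein family. They held 12 DMRs at 6 genes without PAK1IP1, with 10 higher and 2 lower in LBF (median log2 fold change 2.06). With equal library medians the split was again 10 and 2, of which 4 higher and 2 lower passed limma. STK33 held 5 intron DMRs at gaps of 1986 to 8244 bp, all higher in LBF, at 1.76, 2.75, 1.55, 2.51 and 2.35. Of these, 3 were annotated to CpG island shores. The DMR with the smallest standard error had 13.4, 17.3 and 17.1 (LBF) against 1.52, 1.87 and 2.58 (RBF) (chr9:1092023-1092091, 2.51 ± 0.23 log2 units, limma-adjusted p = 0.0012), whereas the last along the chromosome had 82.9, 82.8 and 70.1 (LBF) against 24.8, 30.9 and 3.61 (RBF), with RBF replicate 3 far below the other RBF libraries. All 5 stayed higher with equal library medians, and 2 of them passed (1.599 and 1.29). STK3, the Hippo kinase MST2, had 20.6, 24.8 and 22.1 (LBF) against 3.20, 4.22 and 0.645 (RBF) (chr4:41043289-41043490, 2.82 ± 0.44 log2 units, limma-adjusted p = 0.0021). STK32A had 1.90 and PAK7 had 1.62.

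Lipid kinases add phosphate to phosphoinositides of the membrane, among them the PI3Ks that lie between the insulin receptor and AKT. Without PIK3AP1, which is no kinase, they held 9 DMRs at 7 genes, with 9 higher and 0 lower in LBF (median log2 fold change 1.57). With equal library medians the split was 6 and 3, and none of these passed limma. PIK3C2B, a class II PI3K, had 40.6, 51.4 and 68.5 (LBF) against 8.07, 11.2 and 1.03 (RBF) (chr9:71480807-71480938, 3.13 ± 0.68 log2 units, limma-adjusted p = 0.0046). PIK3CA, the catalytic subunit p110 alpha, had 37.8, 33.3 and 28.7 (LBF) against 12.5, 10.3 and 15.0 (RBF) (1.34). PIK3R6, a regulatory subunit, had 54.5, 33.3 and 51.7 (LBF) against 14.3, 10.00 and 3.10 (RBF) (2.39), and PIK3R4, the regulatory subunit of the class III enzyme, held 2 DMRs at 1.25 and 1.59. PIP5K1B and PIP4K2A, which make phosphatidylinositol bisphosphate, had 1.85 and 1.55. PIK3AP1, an adaptor of PI3K in B cells, was lower in LBF, with 8.22, 8.51 and 5.93 (LBF) against 17.7, 18.1 and 15.5 (RBF) (-1.09).

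Of a list of 34 genes of insulin signalling among the searched symbols, 8 held a DMR, among them PIK3C2B, PIK3C2G, PIK3CA, PRKCQ, PRKCE, PTPN1 and MAP2K2. The list leaves out PTPRE and MAPKAP1, described below, which held DMRs of both directions. The 8 genes on it held 12 DMRs, with 11 higher and 1 lower in LBF, beside 84.8% higher in the table. Their median log2 fold change was 1.30, and all 12 passed limma, as did 99.5% of the table. PRKCE, a PKC linked in mice to insulin resistance, held the lower DMR, with 26.6, 26.3 and 29.5 (LBF) against 37.7, 39.1 and 41.1 (RBF) (-0.50 ± 0.18 log2 units, limma-adjusted p = 0.029). The breeds differed little at this DMR, and limma no longer called it when LBF replicate 1, 2 or 3 was left out (adjusted p = 0.085, 0.096 and 0.056). The other PRKCE DMR had 66.6, 74.6 and 59.9 (LBF) against 40.1, 38.8 and 41.3 (RBF) (0.72). PIK3C2G held 2 DMRs, 0.80 and 1.57. With equal library medians 6 of the 12, at PRKCQ, PIK3C2G, PIK3CA, MAP2K2, PRKCE and PTPN1, turned to lower without passing.

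**Figure D4:**
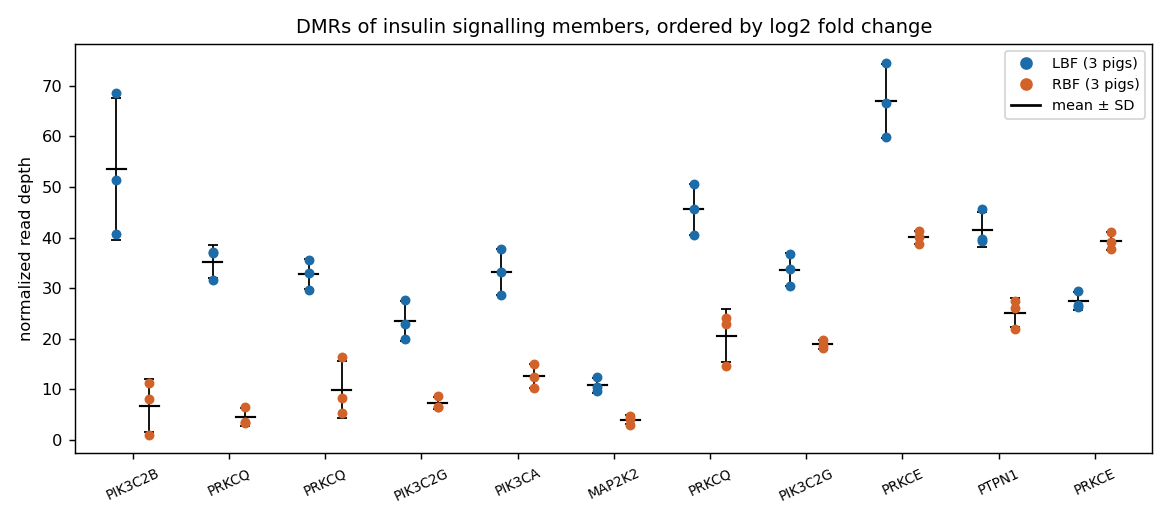
Normalized read depth of each pig (points; LBF blue on the left, RBF orange on the right) at 11 DMRs of insulin signalling genes, ordered by log2 fold change, with black bars for the mean ± SD (n = 3 pigs each). By log2 fold change, not by depth, the breeds lie furthest apart at PIK3C2B and closest at PTPN1 and PRKCE. With equal library medians 6 of the higher DMRs turn to lower without passing limma.

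Of the 84 genes, 49 held a single DMR and 35 held several, for 93 DMRs in all. Among these 35 genes, 20 had DMRs that were all higher in LBF, 15 had DMRs of both directions and 0 had several that were all lower. The 15 mixed genes held 18 of the 31 lower DMRs, and the other 13 were the only DMR of their gene. Along a gene, 41 of 58 pairs of successive DMRs had the same direction, and the median gap was 15074 bp (261 to 316813 bp). Of the 23 pairs within 10 kb, 17 had the same direction. With 78.2% of the 142 DMRs higher in LBF, many pairs and genes share a direction whatever their position. These counts were not tested against that share.

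The closest pair of opposite DMRs lay in MAP3K15 on the X chromosome, a relative of ASK1, 261 bp apart. The first had 31.3, 30.1 and 35.7 (LBF) against 82.1, 83.3 and 116 (RBF) (chrX:17001930-17002092, -1.49 ± 0.22 log2 units, limma-adjusted p = 0.0019) and the second had 70.5, 72.7 and 64.3 (LBF) against 43.3, 31.6 and 22.5 (RBF) (chrX:17002353-17002413, 1.12 ± 0.27 log2 units, limma-adjusted p = 0.0069), which turned to lower with equal library medians without passing. Further DMRs of MAP3K15 on either side had 31.1, 40.4 and 52.0 (LBF) against 5.82, 3.98 and 2.46 (RBF) (3.08) and 11.6, 12.7 and 10.3 (LBF) against 2.29, 0.260 and 0 (RBF) (2.96), and both stayed past limma with equal library medians. CDK8, the kinase of the Mediator complex, held the lowest log2 fold change of all 142, with 0, 1.29 and 0.183 (LBF) against 11.0, 16.9 and 15.6 (RBF) (chr11:3565743-3565946, -3.46 ± 0.36 log2 units, limma-adjusted p = 0.0013). At 6634 bp from it the gene turned to LBF, with 17.6, 24.3 and 22.2 (LBF) against 3.24, 7.03 and 6.29 (RBF) (1.82) and then 85.8, 67.8 and 55.8 (LBF) against 11.8, 18.9 and 3.39 (RBF) (2.75). PTPRE, which acts on the insulin receptor in cell culture, had 3 DMRs higher in LBF (2.24, 2.49 and 1.97) followed along the chromosome by 2 lower, with 8.22, 25.8 and 20.4 (LBF) against 60.6, 68.4 and 66.6 (RBF) (chr14:149104337-149104500, -1.92 ± 0.41 log2 units, limma-adjusted p = 0.0044) and 32.2, 38.7 and 29.2 (LBF) against 50.3, 53.7 and 60.7 (RBF) (-0.71). The last of these lay in a CpG island and its call ended without LBF replicate 3 (adjusted p = 0.053), and the first of the 5, with 86.0, 73.1 and 85.3 (LBF) against 38.4, 25.8 and 4.001 (RBF), lost its call without LBF replicate 1, 2 or 3 (adjusted p = 0.061, 0.051 and 0.060).

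PAK4, an effector of CDC42, had 2.35, 0 and 0 (LBF) against 10.3, 9.37 and 14.8 (RBF) (chr6:43380197-43380386, -3.04 ± 0.51 log2 units, limma-adjusted p = 0.0024) and, 19793 bp away, 20.6, 21.1 and 25.1 (LBF) against 3.55, 9.11 and 1.72 (RBF) (2.2102), both in its first intron. MAPKAP1, the SIN1 subunit of the mTORC2 complex that phosphorylates AKT, had 62.3, 79.9 and 75.1 (LBF) against 10.9, 10.7 and 22.4 (RBF) (2.30) and 6.94, 16.5 and 17.6 (LBF) against 51.0, 56.8 and 54.4 (RBF) (-2.003) at 8723 bp. The first MAPKAP1 DMR is shared with GAPVD1. In the first intron of PPP6R2, a DMR with 16.4, 26.6 and 32.5 (LBF) against 76.8, 88.7 and 58.1 (RBF) (-1.56) lay between DMRs with 56.4, 56.7 and 51.3 (LBF) against 12.5, 14.4 and 33.0 (RBF) (1.54) and 71.2, 66.7 and 61.7 (LBF) against 32.4, 31.2 and 16.3 (RBF) (1.35). CDK13, a kinase of transcript elongation, had 1.64, -2.06 and -1.24. MAPK4 had 1.44 and -1.29, PRKCA had 1.29 and -1.29, and STK31 had 2.69 and -1.16 (the second shared with SNORA40). Differences were smaller at PPP3CA, the catalytic subunit of calcineurin, with 1.12 and -0.66, and at PPP2R5C, a PP2A subunit, with 1.09 and -0.44. The lower PPP2R5C DMR, also annotated to SAT1, had 55.4, 53.6 and 47.8 (LBF) against 70.1, 68.3 and 75.8 (RBF) (-0.44 ± 0.18 log2 units, limma-adjusted p = 0.048), and leaving out any of the 6 libraries ended its call (adjusted p = 0.058 to 0.15). With equal library medians all the lower DMRs of these genes passed, and they could only stay lower under this scaling. The higher DMRs at MAP3K15, PPP6R2, PPP2R5C, PPP3CA, PRKCA and PRKCE each included a DMR that turned to lower.

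**Figure D5:**
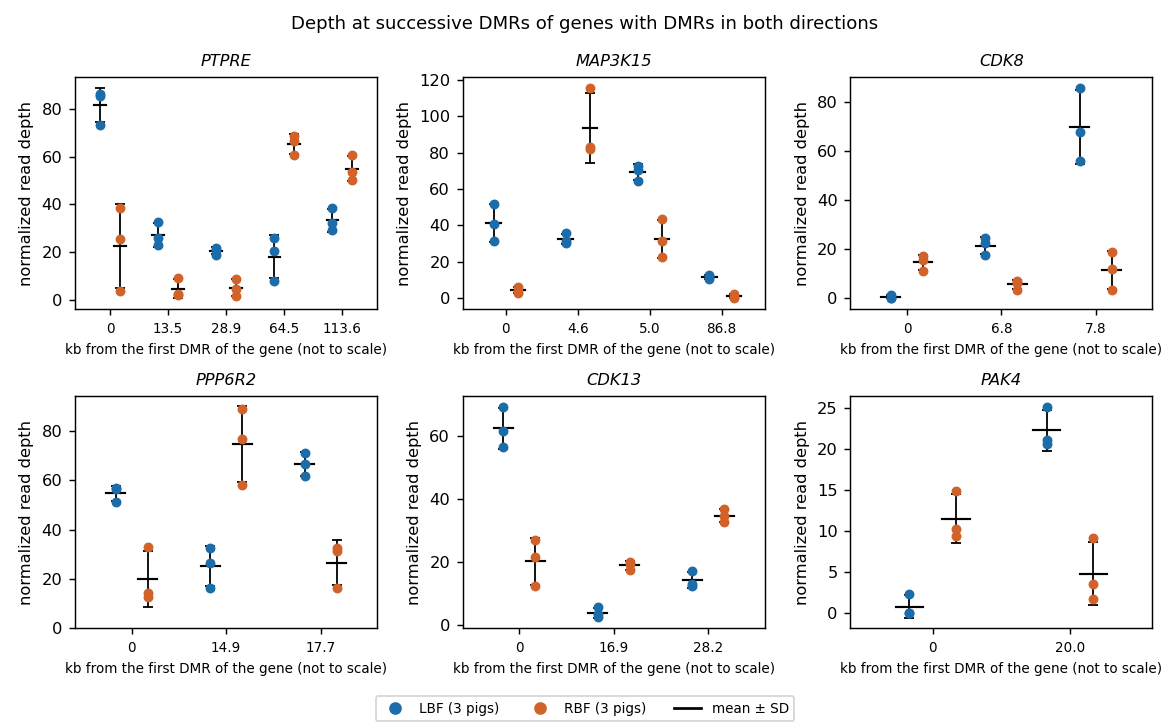
Normalized read depth of each pig (points; LBF blue on the left, RBF orange on the right; black bars, mean ± SD, n = 3 pigs each) at successive DMRs of 6 genes with DMRs of both directions, placed in order along the chromosome with their distance from the first DMR of the gene. In each gene the order of the breeds switches at least 1 time, and in MAP3K15 the switch lies between DMRs 261 bp apart; the third MAP3K15 and the third PPP6R2 DMR turn to lower with equal library medians without passing limma.

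Introns held 126 of the 142 DMRs, with 99 higher and 27 lower in LBF, or 78.6% higher beside 84.0% of the 4150 intron DMRs of the table. By position, 27 of 32 DMRs in first introns, 71 of 89 in internal introns and 5 of 9 in last introns were higher. The 2 kb downstream of genes held 10, with 7 higher and 3 lower, beside 83.5% higher of 321 in the table. CpG island shores held 12 DMRs (10 higher, beside 83.4% of 658) and CpG islands 2, of which MAP3K4 was higher and PTPRE lower, beside 87.6% higher of 105. DMRs with 5 or 6 CpGs were higher in LBF in 49 of 65 cases with a median log2 fold change of 1.30, those with 7 to 9 CpGs in 38 of 49 (1.40) and those with 10 or more CpGs in 24 of 28 (2.29). Over the whole table the same classes, in this order, were higher in 77.0%, 86.5% and 96.2% of DMRs (median log2 fold changes 1.35, 1.63 and 2.11). The X chromosome held 7 DMRs, with 4 higher and 3 lower, and all pigs were female.

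Protein kinase genes, without the lipid kinases and the genes that only share a prefix, held 50 higher and 22 lower DMRs in LBF, or 69.4% higher, with a median log2 fold change of 1.40. Phosphatase genes held 50 higher and 7 lower, or 87.7% higher, with a median of 1.68. With equal library medians 48.6% of the kinase DMRs and 57.9% of the phosphatase DMRs were higher, beside 59.8% of the table. Of those that passed limma under this scaling, 10 were higher and 22 lower at kinases, and 1 was higher and 7 lower at phosphatases, while 27.9% of all DMRs passed. The lower DMRs could only stay lower under this scaling, so their counts say nothing further about kinases or phosphatases. The difference between kinases and phosphatases in the share higher was not tested, since members were chosen with results known. Among 64 further genes of kinase signalling that the rule does not match, 13 held a DMR, giving 17 DMRs of which 11 (64.7%) were higher and 6 lower in LBF, beside 84.8% higher in the table, and all 17 passed limma, as did 99.5% of the table. Their median log2 fold change was 1.32.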

How the data were processed

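Backfat of 3 Landrace and 3 Rongchang pigs was profiled by MeDIP-seq, and the labels gave each breed. According to the methods of the paper, low-quality reads were discarded, SOAP2 served as aligner and the pig genome was Sscrofa10.2 (also in the submitters' processing notes), multiply mapped reads counted a single time, poorly covered CpGs were left out, and neighboring CpGs with a difference between breeds made up a DMR. The authors deposited, per library, a signal that is the read coverage of the CpGs in a DMR. For genome-wide plots they normalized depth to the average number of reads in each group, and the sources used here do not say whether the DMR table was scaled the same way. A DMR with few reads is measured less precisely, and RBF depths were lower. The deposited table also has the authors' own means, p-values and FDR, and only this FDR was used, to filter DMRs in an alternative. No genome of this build was used and no sequence is shown.

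limma 3.58.1 in R 4.3.3 was run on log2(depth + 1) for all 14163 DMRs, with breed as its sole term, p-values adjusted by Benjamini-Hochberg across the table and 0.05 as threshold. Tabulation used python 3.11.15, pandas 2.3.3, numpy 2.4.6 and scipy 1.17.1. Permuting 3 pigs of each breed exactly cannot bring a p below 0.10. The fit was also run on simulated data in which few regions differed, in both directions. In this table nearly all regions differ, so that run does not bear on the calls given here. Members and gene lists were chosen with earlier results of these data known. A rule named 80 DMRs, namely promoter and exon DMRs, the highest and lowest fold of each family at a mean depth of at least 10, genes with 4 or more DMRs or both directions, insulin signalling genes, and DMRs with the most CpGs, the highest depth or a CpG island. Other members were named after their values were seen. Some genes are counted but their results are not reported here.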

Additional observations from a re-analysis of the deposited data

How the results depend on the processing

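The counts of 111 higher and 31 lower DMRs past limma, the share of 78.2% and the median log2 fold change of 1.49 were recomputed under other settings. Equal library medians gave 11 higher, 31 lower, 52.8% and 0.0794. A pseudocount of 5 gave a median of 1.22. Leaving out each library in turn gave medians of 1.26 to 1.53, the lowest without RBF replicate 3. An authors' FDR under 0.005 left 81 DMRs, with 61 higher and 20 lower. At least 10 CpGs left 28 DMRs, with 24 higher, 4 lower, 85.7% and a median of 2.29. These filters lower the counts by holding fewer DMRs. A pseudocount of 0.5, untransformed depth, depths averaging 10 or more, autosomes, pig symbols and dropping symbols that share only a prefix moved the counts by less than 1.5 times, as did, chosen after seeing the data, dropping DMRs shared with other genes. With the replicate number as a replicate block, 111 higher and 29 lower passed, beside 97.8% of all DMRs. The DMRs of PRKCE and PPP2R5C that were lower in LBF lost their calls. The labels give no pairing of pigs by replicate number, though the paper reports paired t-tests between the breeds. Deviations of same-numbered libraries correlated at r = 0.063, -0.012 and 0.061, and those of other pairs at -0.081 to 0.035. With 3 libraries per breed this cannot show whether pigs were paired, and no conclusion is drawn from the lost calls. The median of all DMRs shifted by -0.31 with a pseudocount of 5 and by -0.23 without RBF replicate 3. With equal library medians 36 DMRs turned to lower in LBF without passing, namely DUSP28 (-0.16), DYRK1A (-0.56), FGFR2 (-0.021), HIPK3 (-0.041), MAP2K2 (-0.035), MAP3K15 (-0.35), MAP3K4 (-0.19 and -0.15), MAP3K5 (-0.087), MAP4K2 (-0.48), NEK1 (-0.073), NEK5 (-0.35), NEK7 (-0.21), PAK1IP1 (-0.54), PIK3C2G (-0.65), PIK3CA (-0.087), PIK3R4 (-0.18), PPM1D (-0.45), PPP1CB (-0.53), PPP2R5C (-0.36), PPP3CA (-0.28), PPP6C (-0.078 and -0.22), PPP6R2 (-0.11), PRKCA (-0.18), PRKCE (-0.75), PRKCQ (-0.31), PTPN1 (-0.75), PTPRH (-0.72), PTPRJ (-0.14, -0.46 and -0.30), PTPRN (-0.41), PTPRN2 (-0.40), PTPRT (-0.31) and PTPRU (-0.49), and 64 others stayed higher but lost their call. Leaving out a library ended 4 of the 142 calls, those of PRKCE, PPP2R5C and 2 DMRs of PTPRE, and 138 kept theirs in all 6 cases. Per library left out, 138 to 141 of the 142 passed, beside 96.0 to 99.6% of all DMRs, so these calls held about as often as the table's. The cause of these changes was not tested.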

Other observations

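Some DMRs near these genes were not matched by human symbol. STK32B, a kinase named only by its pig symbol, held 6 intron DMRs on chromosome 8, of which 5 were higher in LBF (1.07, 1.58, 3.005, 1.76 and 2.31) and the first was lower (-0.73). Its strongest DMR had 77.9, 67.8 and 72.8 (LBF) against 5.76, 11.1 and 8.46 (RBF) (chr8:4926681-4926952, 3.005 ± 0.26 log2 units, limma-adjusted p = 0.0012). MAST1, also named only by its pig symbol, held a promoter DMR with 47.5, 40.1 and 40.0 (LBF) against 16.3, 9.82 and 2.40 (RBF) (2.34) and an intron DMR with 79.7, 75.1 and 68.4 (LBF) against 31.6, 21.6 and 11.4 (RBF) (1.85), 242 bp apart.

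At MAP3K4, a DMR annotated only as a CpG island shore of the promoter lay 2235 bp from the promoter DMR that was higher in LBF, and it was lower in LBF, with 106, 95.4 and 93.2 (LBF) against 153, 169.8 and 192 (RBF) (chr1:8309242-8309435, -0.80 ± 0.19 log2 units, limma-adjusted p = 0.0065). Among the other genes of kinase signalling, TSC1, a brake on mTOR, had a promoter DMR higher in LBF (log2 fold change 3.77), where LBF depths were 23.8, 28.04 and 32.3 and RBF depths 0, 8.49 and 0, and an exon DMR lower in LBF (-3.66), where LBF depths were 0, 0 and 10.204 and RBF depths 24.98, 25.6 and 31.5. Introns of RICTOR, a subunit of mTORC2 (3.62), the platelet-derived growth factor receptor gene PDGFRB (3.55) and IGF1R (3.17), the receptor of insulin-like growth factor, were higher in LBF, and those of MTOR (-1.04), FYN (-1.69) and ABL2 (-1.79) were lower. These genes were named after their values were seen.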
